A study of Mus musculus with 18 samples.

Results

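The circadian clock genes described here are Arntl, Clock, Npas2, Per2, Per3, Cry1, Nr1d1, Nr1d2, Dbp and Tef, which together cover the activators, the repressors and the output regulators of the molecular clock. They were taken by name after the Ensembl identifiers of the count files had been matched to mouse symbols in GENCODE M21 (GRCm38), and make up 10 of the 41605 genes listed. All 10 had counts in each of the 18 libraries and passed the filter on low counts, which left 16836 genes for testing. The libraries were made by RNA sequencing of skin from C57BL/6 mice, an inbred laboratory strain, aged 8 to 12 weeks. One group received phosphate-buffered saline (PBS), the control, and the other groups received a detergent known in the labels only as A or B. Each group had 6 libraries. The series asks how detergent-treated skin differs from PBS-treated skin, and the labels give no hour of collection, dose, duration or body site. The labels do not say that each library is a separate animal, so the p-values reflect only how far these samples spread, which may be technical.

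The clock is a transcriptional loop found in most cell types. The proteins of Arntl (also called BMAL1) and of Clock or its relative Npas2 pair up, bind E-box sequences and switch on the Per and Cry genes, whose proteins then shut the pair down. The same pair drives Nr1d1 and Nr1d2, which encode the REV-ERB nuclear receptors that repress Arntl and Npas2 at RORE sequences, and it drives Dbp and Tef, which encode PAR bZIP factors that act at D-box sequences. In peripheral tissues the transcripts of Dbp, Nr1d1, Nr1d2, Per3 and Tef therefore peak at a time of day roughly opposite to those of Arntl and Npas2. In skin the clock runs in keratinocytes, fibroblasts and hair follicle cells and is known for timing cell division, DNA repair and the hair cycle.

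The sequence letters through which the loop acts were found in the promoters of 3 of these genes, and are shown because the members' expression is compared by arm of the loop below. RefSeq promoter entries (GRCm38.p6) matched 9 of the 10 genes in 13 windows, and Per2 had no entry. The 250 bases upstream of each start site were searched on both strands. The D-box letters TTATGTAA or TTACGTAA occurred in Per3, against 1.10% of all genes with a window. The E-box letters CACGTG occurred in Cry1 and in both windows of Tef, against 6.86% of all genes. The RORE motif occurred in none of the 9 genes and in 0.418% of all genes. No searched motif overlapped another in these windows. A match describes letters and is not evidence of a bound site. In the sequences below, read 5′ to 3′ along the gene's strand, capitals mark the motif, which lies 205 and 158 bases before the start site of Per3 (minus strand, chr4:151044796-151044890), 60 bases before that of Cry1 (minus strand, chr10:85185089-85185134) and 138 bases before the downstream start site of Tef (plus strand, chr15:81811256-81811301).
Per3: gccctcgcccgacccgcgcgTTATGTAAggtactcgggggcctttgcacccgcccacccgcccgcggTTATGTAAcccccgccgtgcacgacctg
Cry1: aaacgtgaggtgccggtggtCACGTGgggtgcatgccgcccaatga
Tef: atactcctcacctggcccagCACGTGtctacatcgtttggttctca

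Library totals lay between 17312623 and 29599018 counts, and the group means (± SD, n = 6) were 21863011 ± 4375256 in PBS, 21797656 ± 2686736 in detergent A and 22037488 ± 4282859 in detergent B. The libraries held skin transcripts throughout, with Krt14, a basal keratinocyte keratin, at 3444 to 12120 CPM (reads of a gene scaled to a fixed library total) and Col3a1, a fibroblast collagen, at 1038 to 3385 CPM. Hair keratins differed most between libraries. The summed level of 16 hair keratins was 160.7 to 6864 CPM in PBS (median 4960), 7.897 to 4898 CPM in detergent A (median 752.8) and 16.61 to 3906 CPM in detergent B (median 169.7). On a score that averages the log2 CPM of these keratins, PBS replicate 6 stood at -3.3 relative to the PBS mean, while the other PBS libraries stood between -0.18 and 1.69. PBS replicate 6 also stood apart in several clock genes, so results that rest on it are given with and without it, except correlations within the PBS group. In whole skin, fewer cells of a type and less RNA per cell cannot be told apart.

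Per kilobase of exon, the output and receptor genes were the most abundant of the 10. On the scale of CPM per kilobase, the mean level over the 18 libraries was 28.81 ± 10.36 (SD) for Nr1d1, 22.2 ± 5.505 for Tef, 17.56 ± 3.939 for Nr1d2 and 16.73 ± 7.596 for Dbp. Then followed Per3 at 6.778 ± 2.22, Cry1 at 6.655 ± 0.9626, Clock at 5.201 ± 1.086, Per2 at 4.662 ± 0.8775 and Arntl at 4.183 ± 0.7331 CPM per kilobase. Npas2 was the lowest at 0.8202 ± 0.1893 CPM per kilobase. Neighbours in this order overlapped in their ranges over libraries, except Arntl and Npas2.

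The genes differed widely in how far they varied between libraries of the same group. The SD of log2 CPM within groups was 0.66 for Dbp, 0.515 for Nr1d1 and 0.464 for Per3, which put them at percentiles 97.9, 95.3 and 93.2 of the 10822 genes at or above 10 CPM. It was 0.35 for Tef and 0.309 for Nr1d2. Arntl, at 0.223, and Cry1, at 0.226, were the least variable of the 10, at percentiles 59.7 and 60.6. The median over the 10 genes was 0.326 against 0.196 over the genes at or above 10 CPM. In CPM, the highest library exceeded the lowest by 3.938-fold for Dbp, 3.287-fold for Nr1d1 and 1.554-fold for Cry1. The median of this ratio was 2.188 over the 10 genes and 1.72 over the 10881 genes with a mean of at least 10 CPM.

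**Figure D1:**
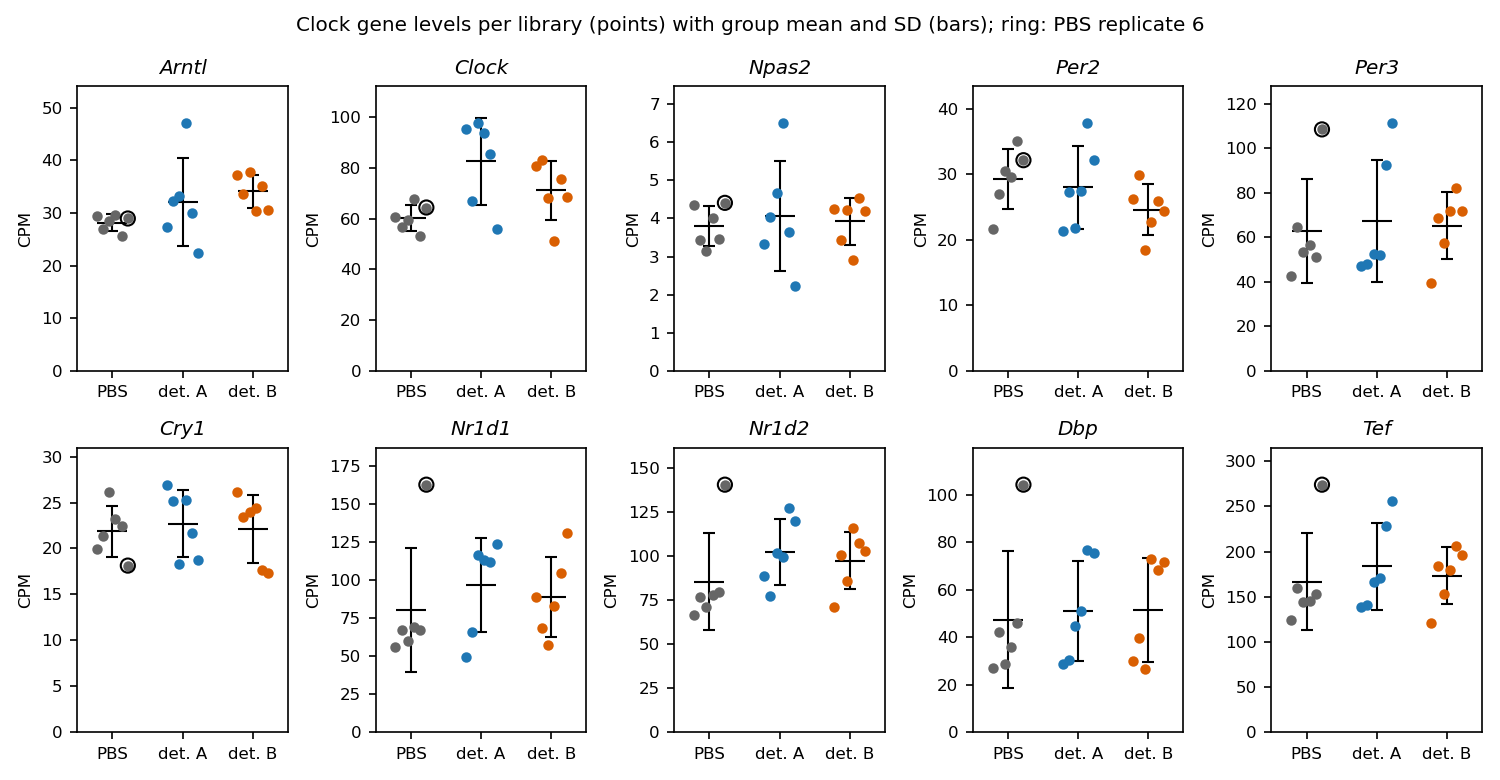
Level of each clock gene in CPM (vertical axis) by group (horizontal axis), with 1 point per library, a bar at the mean and error bars of 1 SD (n = 6 per group). The ringed point is PBS replicate 6, which lies far above the other PBS libraries for Per3, Nr1d1, Nr1d2, Dbp and Tef (Dbp 104.3 CPM against at most 46.14 CPM) and inside their range for Arntl and Clock.

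None of the 10 clock genes passed an adjusted p of 0.05 in detergent A against PBS or in detergent B against PBS, by edgeR's quasi-likelihood test with Benjamini-Hochberg adjustment over all genes. The background was 0.190% of all genes called for detergent A (0.0535% higher and 0.137% lower) and 3.05% for detergent B (1.97% higher and 1.08% lower). At an unadjusted p under 0.05 there was 1 of 10 in each, Clock for detergent A and Arntl for detergent B, where 18.8% and 23.3% of all genes reached that level. DESeq2 called 1 of 10 for detergent A, Clock, against 2.84% of all genes, and 0 for detergent B, against 4.96%. Here and below, DESeq2 shares are over the 28046 genes with any count, including genes it gave no adjusted p. The edgeR shares are over the 16836 genes that passed the filter, so the shares of the methods are not alike. The fitted log2 fold change was above 0 for 9 of 10 genes in each comparison, all but Per2, with a median of 0.13 for detergent A and 0.09 for detergent B, where the median of all genes was -0.01. With the hair score added as a covariate, 6 of these 9 were below 0 in each comparison (Npas2, Per3, Nr1d1, Nr1d2, Dbp and Tef). In size, the median log2 fold change was 0.13 and 0.14, against 0.16 and 0.18 over all genes. Both comparisons use the same PBS libraries, so their likeness is not independent.

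Among the activators, Arntl encodes the obligate partner of the activating pair (ENSMUSG00000055116, chromosome 7 from 113207465 to 113314126). It was at 25.61 to 29.59 CPM in PBS (median 28.74), 22.5 to 47.09 CPM in detergent A (median 31.15) and 30.42 to 37.77 CPM in detergent B (median 34.44). Every detergent B library thus lay above every PBS library, while the detergent A libraries spread to both sides. Ranges that do not overlap were found for 2.85% of all genes in this comparison. The log2 fold change was 0.28 ± 0.13 (SE) with a 95% interval of 0.01 to 0.54 for detergent B (adjusted p = 0.1958, unadjusted p = 0.04214, edgeR) and 0.19 ± 0.13 for detergent A (adjusted p = 0.4361). Without detergent A replicate 4 the detergent A value was 0.044 (adjusted p = 0.8695).

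Clock, the DNA-binding partner of ARNTL (ENSMUSG00000029238, chromosome 5 from 76209868 to 76304792), was at 53.02 to 67.58 CPM in PBS (median 60.13), 55.85 to 97.67 CPM in detergent A (median 89.68) and 51.22 to 83.11 CPM in detergent B (median 72.13). In detergent A, 4 of 6 libraries lay above the PBS range and replicates 2 and 6 lay inside it. The log2 fold change was 0.45 ± 0.13 (SE), with an interval of 0.17 to 0.73, for detergent A (adjusted p = 0.09854 by edgeR, 5 of 6 libraries above the PBS mean) and 0.24 ± 0.13 for detergent B (adjusted p = 0.2829). The detergent A value passed the threshold by DESeq2 (adjusted p = 0.03688), and by edgeR without detergent A replicate 2 (adjusted p = 0.04164, with 5.01% of all genes called) or without detergent A replicate 6 (adjusted p = 0.02416, with 4.55% of all genes called). Over the 24 alternative fits its adjusted p ran from 0.02416 to 0.4255.

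Npas2, which can stand in for CLOCK (ENSMUSG00000026077, chromosome 1 from 39193731 to 39363236), was at 3.141 to 4.41 CPM in PBS (median 3.735), 2.218 to 6.501 CPM in detergent A (median 3.842) and 2.9 to 4.547 CPM in detergent B (median 4.204). Detergent A replicate 4 held the highest value of all 18 libraries and detergent A replicate 6 the lowest, as they did for Arntl. Npas2 had a log2 fold change of 0.10 ± 0.20 (SE) for detergent A (adjusted p = 0.8293, edgeR) and 0.05 ± 0.20 for detergent B (adjusted p = 0.9082).

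The repressors differed from PBS by less than the spread between libraries. Per2 encodes a core period protein (ENSMUSG00000055866, chromosome 1 from 91415982 to 91459324). It was at 21.71 to 35.09 CPM in PBS (median 30.0), 21.34 to 37.8 CPM in detergent A (median 27.36) and 18.41 to 29.91 CPM in detergent B (median 25.22). Its log2 fold change was -0.07 ± 0.15 (SE) for detergent A (adjusted p = 0.8437, edgeR) and -0.25 ± 0.15 for detergent B (adjusted p = 0.3008), the only fitted differences below 0 among the 10 genes.

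Per3 encodes a further period protein and carries the D-box letters shown above (ENSMUSG00000028957, chromosome 4 from 151003652 to 151044665). It was at 42.58 to 108.5 CPM in PBS (median 55.1), 47.28 to 111.3 CPM in detergent A (median 52.27) and 39.44 to 82.17 CPM in detergent B (median 70.37). PBS replicate 6 and detergent A replicates 5 and 6 stood highest. Cry1, a cryptochrome that blocks the activating pair (ENSMUSG00000020038, chromosome 10 from 85131700 to 85185064), was at 18.14 to 26.16 CPM in PBS (median 21.9), 18.32 to 26.94 CPM in detergent A (median 23.4) and 17.34 to 26.09 CPM in detergent B (median 23.67). The groups overlapped almost wholly. The log2 fold change of Per3 was 0.10 ± 0.25 (SE) for detergent A and 0.06 ± 0.25 for detergent B (adjusted p = 0.8612 and 0.9149, edgeR), and 0.33 and 0.28 without PBS replicate 6 (adjusted p = 0.392 and 0.419). That of Cry1 was 0.05 ± 0.13 and 0.02 ± 0.13 (adjusted p = 0.8612 and 0.9553).

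The nuclear receptor genes showed the same high PBS library. Nr1d1 encodes REV-ERB alpha (ENSMUSG00000020889, chromosome 11 from 98767932 to 98775333). It was at 55.75 to 162.5 CPM in PBS (median 66.94), 49.44 to 123.9 CPM in detergent A (median 112.3) and 57.64 to 130.9 CPM in detergent B (median 85.99). Outside replicate 6 no PBS library exceeded 69.46 CPM, and 4 of 6 detergent A libraries lay between 111.6 and 123.9 CPM. Nr1d1 had a log2 fold change of 0.27 ± 0.28 (SE) for detergent A and 0.15 ± 0.28 for detergent B (adjusted p = 0.6255 and 0.7774, edgeR). Without PBS replicate 6 it was 0.60 and 0.48 (adjusted p = 0.1144 and 0.1584).

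Nr1d2, which encodes REV-ERB beta (ENSMUSG00000021775, chromosome 14 from 18204054 to 18239127), was at 66.4 to 140.4 CPM in PBS (median 77.34), 77.06 to 127.1 CPM in detergent A (median 100.5) and 71.24 to 116.1 CPM in detergent B (median 101.5). Outside replicate 6 no PBS library exceeded 79.51 CPM. Nr1d2 had a log2 fold change of 0.26 ± 0.17 (SE) for detergent A and 0.19 ± 0.17 for detergent B (adjusted p = 0.4187 and 0.5184, edgeR). Without PBS replicate 6 it was 0.46 ± 0.13 for detergent A (adjusted p = 0.04747), past the threshold, in a fit that called 5.24% of all genes. Over the 24 alternative fits for detergent A its adjusted p ran from 0.04747 to 0.9957. Without PBS replicate 6 it was 0.39 ± 0.13 for detergent B (adjusted p = 0.05956), where 11.1% of all genes were called. That fit kept replicate 6 of both detergents. With all libraries and the replicate number added as a block, Nr1d2 had 0.28 ± 0.13 for detergent A and 0.22 ± 0.13 for detergent B (adjusted p = 0.238 and 0.2986, edgeR). Thra, which encodes thyroid hormone receptor alpha, shares 263 exon bases with Nr1d1 on the opposite strand, or 8.55% of Nr1d1 exons. Whether the counting used strand is not given in the sources used here. Thra had a log2 fold change of -0.42 ± 0.14 for detergent A and -0.46 ± 0.14 for detergent B (adjusted p = 0.1319 and 0.07328).

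Dbp, an output gene known for its large daily swing (ENSMUSG00000059824, chromosome 7 from 45705088 to 45710203), was at 27.27 to 104.3 CPM in PBS (median 39.15), 28.71 to 76.65 CPM in detergent A (median 47.77) and 26.49 to 72.83 CPM in detergent B (median 54.09). In 6 libraries it lay at 68.58 CPM or above, namely PBS replicate 6, detergent A replicates 5 and 6 and detergent B replicates 4, 5 and 6, and in the other 12 it lay between 26.49 and 50.92 CPM. Each group therefore held both high and low libraries. The 6 high libraries all had replicate numbers 4, 5 or 6. Replicate 1 was low in each group, at 27.27 CPM in PBS, 28.71 CPM in detergent A and 30.19 CPM in detergent B. The labels do not say what a number shares. Dbp had a log2 fold change of 0.11 ± 0.35 (SE) for detergent A and 0.12 ± 0.35 for detergent B (adjusted p = 0.8958 and 0.8642, edgeR). The 95% intervals were -0.63 to 0.85 and -0.62 to 0.86, the widest of the 10 genes. Without PBS replicate 6 the values were 0.50 and 0.51 (adjusted p = 0.3343 and 0.277). With the replicate number added as a block they were 0.155 ± 0.191 and 0.152 ± 0.191 (adjusted p = 0.6728 and 0.6474, edgeR). With the hair score added as a covariate they were -0.38 and -0.42. Sphk2 shares 539 exon bases with Dbp on the opposite strand, or 18.01% of Dbp exons, and had a log2 fold change of -0.09 and -0.03 (adjusted p = 0.6987 and 0.9125).

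Tef, a relative of Dbp with E-box letters in both promoter windows (ENSMUSG00000022389, chromosome 15 from 81802421 to 81826863), was at 124.0 to 274.1 CPM in PBS (median 149.2), 138.9 to 256.5 CPM in detergent A (median 168.6) and 121.2 to 206.0 CPM in detergent B (median 182.1). PBS replicate 6 was again the highest, with the next PBS library at 159.4 CPM. Tef had a log2 fold change of 0.14 ± 0.19 (SE) for detergent A and 0.06 ± 0.19 for detergent B (adjusted p = 0.7295 and 0.8845, edgeR). Without PBS replicate 6 it was 0.34 and 0.26 (adjusted p = 0.1993 and 0.2872).

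No clock gene was called between the detergents. None of the 10 passed, and neither did any of the 16836 genes tested by edgeR (0%) or of the 28046 genes given to DESeq2 (0%). By edgeR, 3.27% of all genes and 0 of the 10 had an unadjusted p under 0.05. The ranges of the detergents overlapped for all 10, and did not for 0.0594% of all genes. The log2 fold change of detergent B over detergent A ran from -0.21 for Clock to 0.09 for Arntl, with adjusted p-values of 0.9887 to 0.9985 by edgeR. The 95% intervals ran from -0.17 to 0.35 for Arntl and from -0.73 to 0.75 for Dbp, so differences of that size are not excluded.

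**Figure D2:**
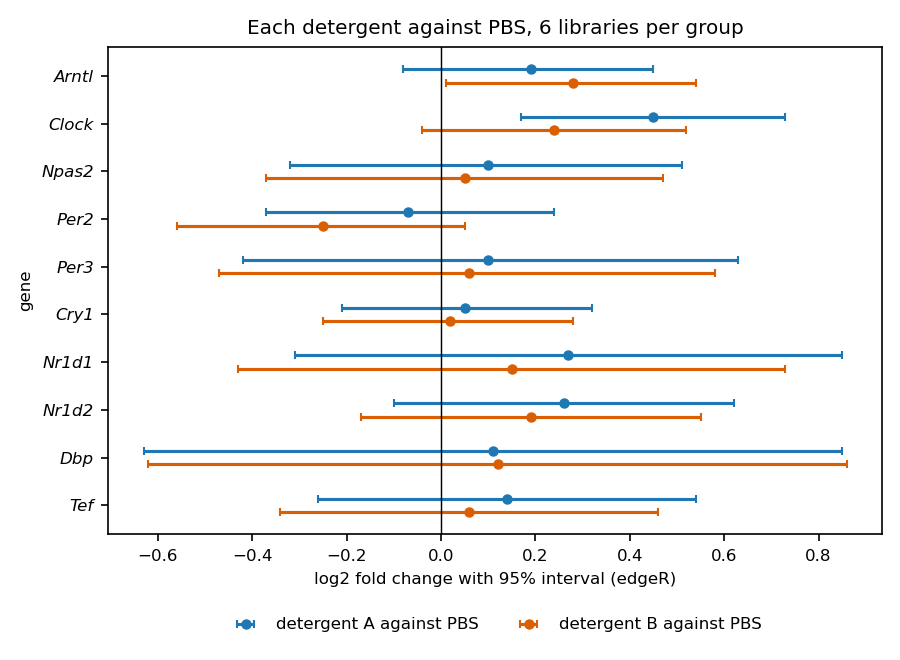
Log2 fold change of each clock gene in detergent A and in detergent B against PBS, with points at the edgeR estimate and bars for the 95% interval. The interval leaves out 0 for Clock in detergent A (0.17 to 0.73) and for Arntl in detergent B (0.01 to 0.54), neither past the threshold after adjustment, and it is widest for Dbp.

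To set libraries side by side, a clock contrast was computed in each as the mean log2 CPM of 5 output-arm genes (Dbp, Nr1d1, Nr1d2, Per3, Tef) minus that of 3 activator genes (Arntl, Npas2, Clock), relative to the PBS mean. A library taken nearer to the time at which Dbp peaks would score higher. The contrast was -0.54 to 0.84 in PBS (median -0.07), -0.51 to 1.12 in detergent A (median -0.32) and -0.62 to 0.53 in detergent B (median 0.03). The group means were 0.0 ± 0.47 (SD, n = 6), -0.01 ± 0.66 and -0.03 ± 0.46. The ranges overlapped over most of their length, detergent A reaching higher than detergent B through replicate 6, and the group means differed by far less than the SD within a group. Leaving out single libraries moved the difference from PBS between -0.234 and 0.161 for detergent A and between -0.14 and 0.141 for detergent B. A contrast near 0 does not mean that the arms stayed at the PBS level, since both were higher on average. The output arm was at 0.2 ± 0.44 (SD, n = 6) in detergent A and 0.15 ± 0.35 in detergent B. The activator arm was at 0.2 ± 0.36 and 0.18 ± 0.18. In PBS the SD was 0.5 for the output arm and 0.12 for the activator arm. No test was made, because the contrast is a score over chosen genes.

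Single libraries set the ends of the contrast in different ways. Detergent A replicate 6 scored highest at 1.12, with its output arm at 0.73 and its activator arm at -0.39 relative to the PBS mean. PBS replicate 6 scored 0.84 with its output arm at 0.96 and its activator arm at 0.12. Replicate 6 had the highest output arm in each group, at 0.49 in detergent B. In the other PBS libraries the output arm was at most -0.03 and the activator arm at most 0.11. Detergent A replicate 4 had the highest activator arm, 0.72, beside an output arm of 0.2 and a contrast of -0.51. Detergent B replicate 1 scored lowest at -0.62, from an output arm of -0.29 and an activator arm of 0.33. Without PBS replicate 6 the PBS contrast was -0.17 ± 0.25 (SD, n = 5). Since collection times are not given, no library was assigned an hour.

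**Figure D3:**
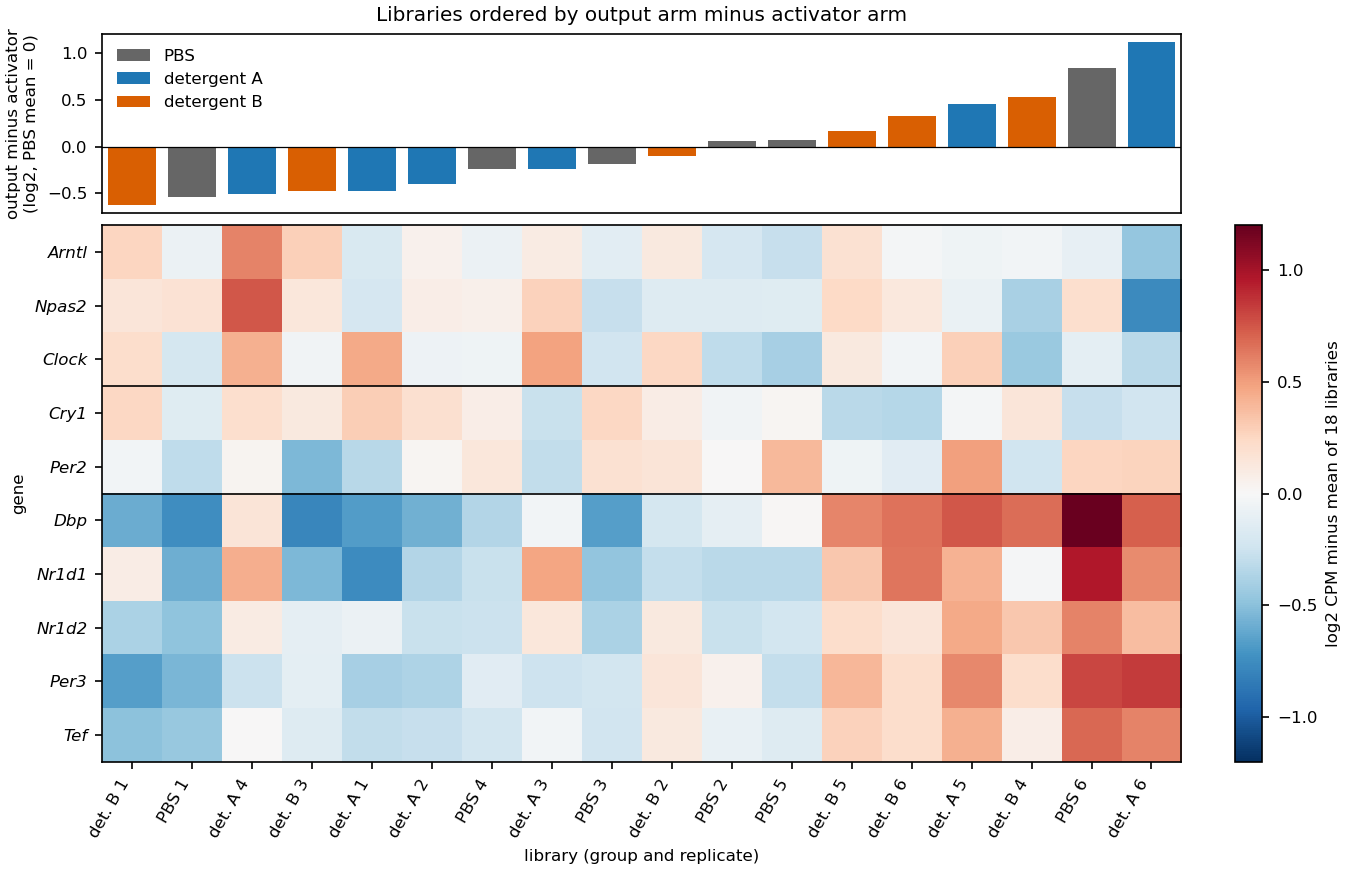
Top, clock contrast of each of the 18 libraries (bars, log2 scale, relative to the PBS mean), ordered from lowest to highest and coloured by group. Below, log2 CPM of each clock gene relative to its mean over the 18 libraries, in the same order. Libraries of all groups are mixed along the order, from -0.62 in detergent B replicate 1 to 1.12 in detergent A replicate 6.

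Output-arm genes moved together across libraries, as did the activators, while no pair between the arms passed the test. Among 45 pairs of the 10 genes over 18 libraries, 17 had an adjusted p under 0.05 for Pearson's r of log2 CPM (100000 permutations, two-sided, Benjamini-Hochberg over the 45 pairs), 13 of them positive and 4 negative. All 10 pairs within the output arm passed, with r from 0.66 to 0.97 and a median of 0.86. No share over pairs of all genes is given here, so these counts have no background beside them. For comparison, centred on group means, Nr1d1 had r = 0.85 with Dbp and ranked 136 among 13800 genes. Cry2, a clock gene outside the 10, had r = 0.72 with Dbp and ranked 864. The permutations took no account of replicate numbers shared between groups. Per3 with Tef had r = 0.97 (permutation p = 1e-05, the smallest that these permutations can give, adjusted p = 9e-05) and rho = 0.93. Dbp with Tef had r = 0.91 and rho = 0.87. Within the output arm r was 0.56 to 0.96 without PBS replicate 6, and 0.47 to 0.94 without the 2 libraries farthest from the median of the first gene of each pair. In single groups of 6 it ran from 0.93 to 1.0 in PBS, 0.61 to 0.97 in detergent A and 0.26 to 0.99 in detergent B. The PBS values include replicate 6, with its output arm at 0.96 against at most -0.03 in the other PBS libraries. No r within PBS is given without it.

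The 3 activator pairs also passed by Pearson's r, Clock with Npas2 narrowly (adjusted p = 0.05 after rounding, r = 0.54), and its rho did not pass (adjusted p = 0.082 by permutation). Arntl with Npas2 had r = 0.81 (permutation p = 0.00022, adjusted p = 0.0011) and rho = 0.64 (adjusted p = 0.024), which dropped to r = 0.51 without detergent A replicates 4 and 6, the farthest libraries. The other activator pairs had r of 0.54 and 0.57, and the 3 lay between 0.41 and 0.64 without their farthest libraries.

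Between the arms, 0 of 15 activator and output pairs passed, with r from -0.35 to 0.2. Arntl with Dbp, which peak at opposite times in a running clock, had r = -0.18 (permutation p = 0.48, adjusted p = 0.65) and rho = -0.15 (permutation p = 0.56, adjusted p = 0.72), and r = -0.15 without its farthest libraries. Centred on group means r was -0.27, and within groups it was -0.11 in PBS, -0.18 in detergent A and -0.82 in detergent B. The differences between these 3 values were not tested. All 4 negative pairs that passed held Cry1, with Per3 (r = -0.58), Nr1d1 (r = -0.65), Dbp (r = -0.63) and Tef (r = -0.62), at adjusted p-values of 0.016 to 0.034 by permutation. Their rho ran from -0.56 to -0.63, and for Cry1 with Dbp its adjusted p was 0.052. Without the farthest libraries r was -0.44 for Per3, -0.58 for Nr1d1, -0.55 for Dbp and -0.59 for Tef. Such values were not rare in these libraries: centred on group means, Cry1 had r = -0.64 with Dbp and stood only at rank 1612 from the lowest end among 13800 genes. In every single group, each of these 4 pairs had a negative r, from -0.54 to -0.76. Per2 passed with no other gene. The labels name no batch, so no within-batch value could be given.

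**Figure D4:**
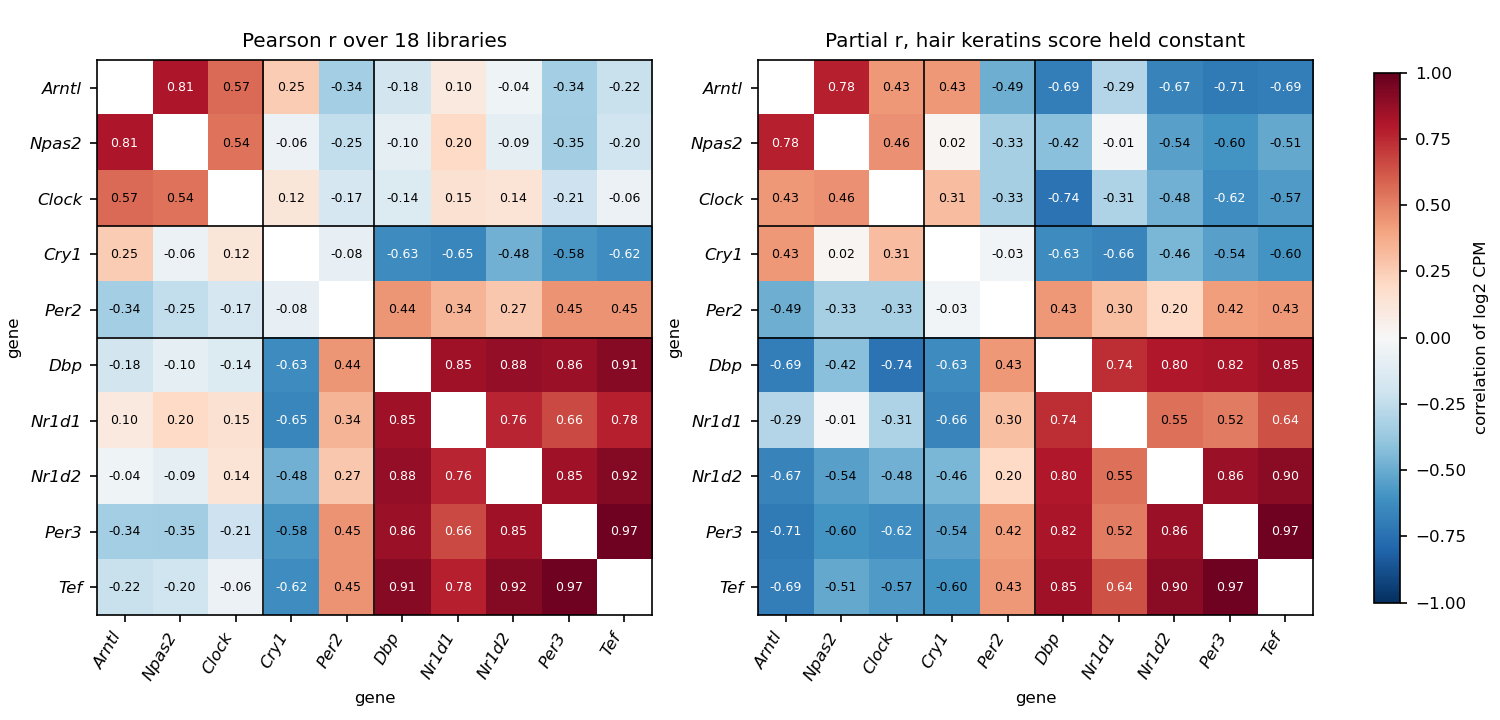
Pearson's r of log2 CPM between each pair of the 10 clock genes over 18 libraries (left) and the same with the hair keratins score held constant (right), on a colour scale from -1 to 1. The block of Per3, Nr1d1, Nr1d2, Dbp and Tef is positive in both (0.66 to 0.97 on the left, 0.52 to 0.97 on the right), and the pairs of these genes with Arntl, Clock and Npas2 go from -0.35 to 0.2 on the left to -0.74 to -0.01 on the right.

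Hair content moved with several clock genes. With the hair keratins score over 18 libraries, 5 of the 10 genes had an adjusted p under 0.05 by permutation (Benjamini-Hochberg over 10 relations), each with a lower level where hair keratins were higher. These were Nr1d2 (r = -0.75, adjusted p = 0.0042), Nr1d1 (r = -0.65, adjusted p = 0.019), Dbp (r = -0.64, adjusted p = 0.019), Tef (r = -0.59, adjusted p = 0.025) and Clock (r = -0.54, adjusted p = 0.047). Such values were common in these libraries. An r of at least this size was found in 36.1% of all genes for the value of Clock, 25.4% for that of Dbp and 13.5% for that of Nr1d2. For Dbp, rho was -0.63, r without the farthest libraries was -0.63, and r within groups was -0.91 in PBS, -0.56 in detergent A and -0.78 in detergent B. The PBS value includes replicate 6, which had the lowest hair score and the highest Dbp level of that group. Without PBS replicate 6, r over the other libraries of all groups was -0.67. For Clock, r was -0.38 without detergent A replicates 4 and 5, the farthest libraries, and 0.02 within detergent B. Of the 16 hair keratins, 7 were at 0 in at least 1 library (Krt33b, Krt34, Krt36, Krt81, Krt86, Krt72 and Krt73). The part of hair content in these levels was not tested.

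With the hair score held constant, a setting chosen after seeing the data and given without a test, the partial r was negative in 15 of 15 pairs of an activator with an output gene, with a median of -0.57 against -0.1 before. It was -0.69 for Arntl with Dbp and -0.74 for Clock with Dbp. The hair score had a negative r with every one of these activator and output genes, from -0.32 for Npas2 to -0.75 for Nr1d2. Holding such a score constant by itself moves r between the arms downward. The pairs share genes, and no share over pairs of all genes is given, so the count of negative pairs has no background beside it. The median within the output arm was 0.81. The melanocyte and proliferation scores, the only others held constant, gave similar values. The median between the arms was -0.7 with 15 of 15 pairs negative for the melanocyte score, and -0.61 with 13 of 15 negative for the proliferation score. These lists had the strongest correlations with Dbp of those compared below (r = -0.7 and -0.77). The remaining lists, keratinocyte genes included, were not held constant.

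Other marker lists also moved with Dbp. Over 9 lists, chosen for this comparison after seeing the data, Dbp had r = -0.77 with proliferation genes (permutation p = 0.00031, adjusted p = 0.0028, rho = -0.69), -0.7 with melanocyte genes (adjusted p = 0.0056, rho = -0.64), -0.64 with hair keratins (adjusted p = 0.017) and 0.55 with keratinocyte genes (adjusted p = 0.047, rho = 0.51). Without the farthest libraries these were -0.81, -0.67, -0.63 and 0.66. Sebaceous gland genes (r = 0.52), skeletal muscle genes (r = 0.42), immune cell genes (r = 0.27), adipocyte genes (r = -0.2) and fibroblast genes (r = -0.06) did not pass by Pearson's r. By rho, sebaceous gland genes (rho = 0.59, adjusted p = 0.024 by permutation) and skeletal muscle genes (rho = 0.52, adjusted p = 0.046) did pass. Their r without the farthest libraries was 0.73 and 0.62. The summed level of the 4 proliferation genes was 312.5 to 650.4 CPM in PBS, 269.1 to 749.6 CPM in detergent A and 341.0 to 594.6 CPM in detergent B, and none was at 0 in any library. That of the 5 melanocyte genes was 66.59 to 524.6 CPM, 55.51 to 535.6 CPM and 87.15 to 395.0 CPM, and that of the 6 keratinocyte genes was 15390 to 30610 CPM, 20350 to 51580 CPM and 26930 to 47230 CPM, again with none at 0. No share over other gene lists is given. Among single genes, values of this size with Dbp were not rare. Centred on group means, Per2 (r = 0.53) ranked 2408 from the highest end of 13800 genes. Cry1 (r = -0.64) ranked 1612 from the lowest end. The part of these cell types in the clock gene levels was not tested.

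**Figure D5:**
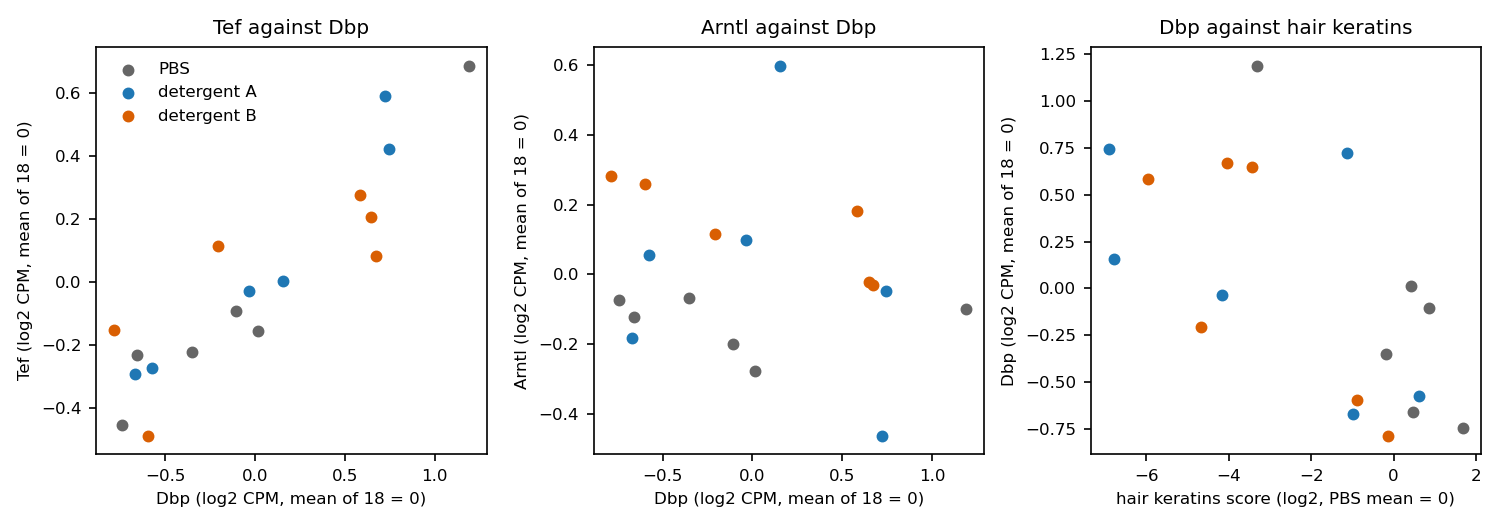
Log2 CPM of Tef against Dbp (left), of Arntl against Dbp (middle) and of Dbp against the hair keratins score (right), with 1 point per library coloured by group. Tef follows Dbp closely (r = 0.91), Arntl and Dbp show little relation (r = -0.18), and Dbp is lower where the hair score is higher (r = -0.64).

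The genes most like Arntl and Dbp were then ranked over all 13800 named genes with a mean of at least 1 CPM, by r of log2 CPM centred on group means over the 18 libraries, as a description. Of all these genes, Npas2 was the most like Arntl (r = 0.89), followed by Thbs2, Mafg, Esyt2 and Fpgs (0.86 to 0.78), and Clock was at rank 392 (r = 0.58). The genes most opposite to Arntl were Egln1, Poll, Cln6, Cnot8 and Fancg (-0.85 to -0.8). For Dbp, Nr1d2 was at rank 9 (r = 0.92), Tef at rank 15 (r = 0.91), Per3 at rank 127 and Nr1d1 at rank 136. The 5 genes most like Dbp were Itm2b, Dcaf11, H2-D1, Mob2 and Pkib (0.96 to 0.93), and the most opposite were Fem1b, Lpgat1, Gtf3c4, Slc39a14 and Slc7a1 (-0.96 to -0.93). Of clock genes outside the 10, Ciart, a repressor of the activating pair, was at rank 109 for Dbp (r = 0.86), and Hlf, the other PAR bZIP factor, at rank 509 (r = 0.78). Nfil3, which encodes a repressor that competes for D-box sequences, was among the most opposite, at rank 199 from the lowest end (r = -0.83). Per1 did not follow Dbp (r = 0.07).

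Around these 10 genes, the list of other clock loop genes held 22, of which 21 were tested and Rorb did not pass the filter. None passed the threshold in any comparison by edgeR, and 5, 5 and 0 had an unadjusted p under 0.05 in detergent A against PBS, detergent B against PBS and detergent B against detergent A, near the 18.8%, 23.3% and 3.27% of all genes. The shares of all genes called by edgeR were 0.190%, 3.05% and 0%. DESeq2 called 1 for detergent A (Hdac3), 1 for detergent B (Per1) and 0 between the detergents, against 2.84%, 4.96% and 0% of all genes. Per1, a period gene that also responds acutely to glucocorticoids and other stimuli, was at 92.01 ± 19.75 CPM (SD, n = 6) in PBS, 66.52 ± 25.66 CPM in detergent A and 53.41 ± 18.78 CPM in detergent B. Its log2 fold change was -0.79 ± 0.25 (SE) for detergent B, with 6 of 6 libraries below the PBS mean (adjusted p = 0.08265 by edgeR and 0.0339 by DESeq2, and up to 0.1778 over the alternative fits), and -0.47 ± 0.25 for detergent A (adjusted p = 0.321). Nfil3 had -0.73 ± 0.33 for detergent B and -0.53 ± 0.33 for detergent A (adjusted p = 0.1928 and 0.3978, edgeR). Ciart had 0.21 ± 0.20 for detergent B and 0.45 ± 0.20 for detergent A (adjusted p = 0.5465 and 0.242).

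Cry2, Hlf and Bhlhe41 lay within 0.09 of PBS on the log2 scale in both comparisons, with adjusted p-values of 0.7288 or more. The smallest adjusted p-values of this list in detergent A were those of Hdac3, a corepressor subunit used by the REV-ERBs (0.18 ± 0.06, adjusted p = 0.1269 by edgeR and 0.0275 by DESeq2, and 0.346 at most over the alternative fits, above the whole PBS range, as were 1.36% of all genes above or below it), Arntl2, a paralogue of Arntl (0.51 ± 0.19, adjusted p = 0.1625), and Fbxw11, a ubiquitin ligase subunit (0.15 ± 0.06, adjusted p = 0.1681). In detergent B, after Per1, they were those of Rora, an activator at RORE sequences (0.57 ± 0.20, adjusted p = 0.1086), and Csnk2a1, a kinase subunit (0.18 ± 0.07, adjusted p = 0.1375).

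Of 15 clock output genes, all tested, 1 fell in detergent B by edgeR, where 1.08% of all genes fell. None passed in detergent A or between the detergents, where 0.190% and 0% of all genes were called. At an unadjusted p under 0.05 there were 6 in detergent A, 5 in detergent B and 0 between them, against 18.8%, 23.3% and 3.27% of all genes. DESeq2 called 3 in detergent A (Nampt, adjusted p = 0.01317, Wee1, 0.02791, and Klf10, 0.03207), 3 in detergent B (Wee1, 0.002141, Usp2, 0.03319, and Nampt, 0.04159) and 0 between them, where it called 2.84%, 4.96% and 0% of all genes. The gene past the threshold by edgeR was Wee1, which encodes a kinase that holds back entry into mitosis. It was at 23.61 to 33.38 CPM in PBS (median 31.43), 20.27 to 25.72 CPM in detergent A (median 23.93) and 18.19 to 24.63 CPM in detergent B (median 22.89), so that only PBS replicate 6 lay inside the detergent ranges. Its log2 fold change was -0.46 ± 0.10 (SE) for detergent B, 0.7277-fold, with 6 of 6 libraries below the PBS mean (adjusted p = 0.02938, edgeR), and -0.37 ± 0.10 for detergent A (adjusted p = 0.08743). The detergent B call was lost with the hair score added as a covariate (log2 fold change -0.34, adjusted p = 0.2141). It was also lost in 7 of 18 fits that left out 1 library, namely PBS replicate 2 (adjusted p = 0.08771), 3 (0.07314), 4 (0.05585) or 5 (0.07588) and detergent B replicate 2 (0.06278), 5 (0.06922) or 6 (0.06568). Without PBS replicate 6 the adjusted p of Wee1 by edgeR was 0.008734 for detergent B and 0.02521 for detergent A. There, 11.1% and 5.24% of all genes were called. Over all 24 alternative fits its adjusted p ran from 0.002141 to 0.2141 for detergent B and from 0.02521 to 0.4301 for detergent A. In detergent A the smallest adjusted p-values were those of Nampt, an enzyme of NAD synthesis (0.29 ± 0.08, adjusted p = 0.07624), Wee1, and Klf10, a Krüppel-like factor (0.47 ± 0.14, adjusted p = 0.09434).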

How the data were processed

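Gene counts were deposited for 18 skin libraries, as whole numbers per gene that sum to different totals and were not normalised by the authors. STAR, featureCounts and GRCm38.p5 were used, per the submitters' processing notes. Versions and the strand setting are not given in these sources. Of 41605 gene IDs, 41519 matched GENCODE M21, and the 10 clock genes and the other lists were chosen with earlier results of these data known. The counts entered edgeR 4.0.16, run in R 4.3.3 (low-count filter at its defaults, TMM, robust quasi-likelihood fit with group as the only term, all 18 libraries, 15 residual degrees of freedom). Benjamini-Hochberg adjustment covered 16836 genes with a threshold of 0.05, and the SE is the size of the log2 fold change over the square root of F. CPM use TMM-scaled totals, and log2 CPM a prior count of 2. CPM per kilobase divide by the exon bases of a gene. From the other lists, genes past the threshold were named, or the 3 smallest p-values, with Per1, Cry2, Ciart, Hlf, Bhlhe41 and Nfil3 always given. Over 153 pairs of libraries the chi-square per gene was at least 9.486, so none agreed within sampling noise. The fits and correlations were tested on simulated data. DESeq2 1.42.0 and the other settings are given under the closing observations.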

Additional observations from a re-analysis of the deposited data

Results flagged for a closer look

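Within each group of 6 libraries, 17 measures (the 10 clock genes, 6 further clock genes and the clock contrast) were searched for a highest or lowest library far from its nearest neighbour. Of 51 groups, 9 held such a library, where chance gives about 1 in 20, and the genes are correlated, so the 9 are not independent. PBS replicate 6 stood above the other PBS libraries in Per3 (108.5 CPM, nearest 64.44), Nr1d1 (162.5 CPM, nearest 69.46), Nr1d2 (140.4 CPM, nearest 79.51), Dbp (104.3 CPM, nearest 46.14), Tef (274.1 CPM, nearest 159.4), Cry2 (77.09 CPM, nearest 51.72) and Hlf (55.43 CPM, nearest 25.94). The same library stood below them in Nfil3 (8.596 CPM, nearest 25.9). Detergent B replicate 1 stood below its group in Hlf (11.28 CPM, nearest 25.5).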

How the results depend on the processing

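Each of the 30 log2 fold changes (10 clock genes in 3 comparisons) was refitted in 24 other ways. With RLE size factors or no filter on low counts, all 30 kept their direction and side of the threshold. The number of clock genes called in detergent A against PBS was 0, and 1 by DESeq2, and 0 to 1 over the fits that left out 1 library. In the other comparisons it was 0 in every alternative run. With the hair score added as a covariate, 13 of 30 changed sign: for detergent A Npas2 -0.086, Per3 -0.15, Nr1d1 -0.11, Nr1d2 -0.0027, Dbp -0.38 and Tef -0.10, for detergent B Npas2 -0.11, Per3 -0.22, Nr1d1 -0.21, Nr1d2 -0.078, Dbp -0.42 and Tef -0.20, and for detergent B over A Dbp -0.042. The fit on only the 12 libraries compared gave Dbp -0.00096 for B over A. Over fits with 1 library left out, 34 of 540 values changed sign. For detergent A, Cry1 ran from -0.0033 to 0.11, Dbp from -0.040 to 0.50, Npas2 from -0.090 to 0.22, Per2 from -0.17 to 0.0011 and Per3 from -0.10 to 0.33. For detergent B, Cry1 ran from -0.032 to 0.078, Npas2 from -0.00022 to 0.13, Per3 from -0.034 to 0.28 and Tef from -0.015 to 0.26. For B over A, Cry1 ran from -0.098 to 0.026, Dbp from -0.12 to 0.16, Npas2 from -0.18 to 0.14, Nr1d2 from -0.14 to 0.00091, Per3 from -0.13 to 0.16 and Tef from -0.15 to 0.038. The causes were not tested.

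Replicate numbers are shared between groups, but over all genes same-numbered libraries did not consistently deviate together (correlations from -0.348 to 0.546 in 18 pairs, 8 over 0.1, and a library correlated best with its own number in 8 of 36 choices). In the clock contrast some numbers did lie close: in PBS, detergent A and detergent B it was -0.54, -0.47 and -0.62 for replicate 1, 0.07, 0.46 and 0.17 for replicate 5, and 0.84, 1.12 and 0.33 for replicate 6, but -0.24, -0.51 and 0.53 for replicate 4. In the same order of groups it was 0.06, -0.4 and -0.1 for replicate 2 and -0.19, -0.24 and -0.48 for replicate 3. The labels do not say what a number shares. In detergent A against PBS the block lowered the SE of Dbp from 0.352 to 0.191, and of Tef and Per3 to 0.111 and 0.157. With the number as a replicate block, 0 clock genes were called in each comparison, all genes called went from 32 to 0 for detergent A and from 514 to 377 for detergent B, and Per3 (0.0082) and Dbp (-0.0027) changed sign for B over A. The 17 pairs of clock genes past the threshold were 10 without the farthest libraries, with fewer libraries in each. Over all genes, the 32 calls for detergent A became 797 by DESeq2, 0 with the hair covariate and 0 to 888 with 1 library left out. The 514 for detergent B became 1391 by DESeq2, 251 with no filter, 5 with the hair covariate and 28 to 1888 with 1 library left out. The clock contrast moved by less than its SD in all settings. All 10 genes were above 1 CPM in all 18 libraries, and the spread between libraries limits the precision, most of all for Dbp.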
